A study of Mus musculus with 48 samples.

Results

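Hippocampal astrocytes of postnatal day 7 (P7) were compared with those of postnatal day 1 (P1) in the mouse, with 3 bulk RNA-seq libraries at each age. The 6 libraries were chosen by the tissue and age in their labels, and are 6 of the 48 libraries of the series. The series also holds cortex and olfactory bulb at the same ages, P14 libraries of the 3 regions, and P28 libraries of a Gabbr1 genotype study. The P28 libraries are not used here. Hippocampus P14 libraries enter the estimate of the spread, and cortex and olfactory bulb at P1 and P7 enter a comparison of regions. Both groups carry the labels hippocampus, astrocyte and an age, and the labels give no strain, genotype, treatment, sex or sorting marker. They state that tissue was dissociated and that picogram to nanogram amounts of total RNA went into a low-input kit (Trio RNA-seq). They do not say whether a library is 1 animal or a pool, so p-values here measure the spread between libraries, which may be technical.

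Astrocytes are glial cells that arise from the radial glia of the embryonic brain, divide locally after birth, and then stop dividing and extend fine processes around synapses and blood vessels. Mature astrocytes take up glutamate and potassium, pass water and small molecules through channels and gap junctions, supply neurons with lipids and lactate, and secrete proteins that promote synapse formation. The first postnatal week in the hippocampus covers the end of embryonic-type neurogenesis outside the dentate gyrus, the multiplication of astrocytes and the onset of synapse formation.

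Values are normalized read counts, the reads of a gene divided by 1 factor per library, as deposited. The 6 libraries held 4002881 to 8986015 reads on genes. Rn45s, the ribosomal RNA precursor, took 20.8 to 27.3% of the reads at P1 and 24.4 to 28.9% at P7 (difference 2.33 percentage points, exact two-sided permutation p 0.5). Pearson's r across genes was 0.963 to 0.971 between P1 libraries, 0.947 to 0.972 between P7 libraries and 0.833 to 0.885 between ages. The Y-linked gene Ddx3y was read in P1 replicate 1 and P7 replicate 2 and at 0 in the other 4 libraries. The labels carry library numbers that differ between the ages, and an effect of handling by number cannot be told apart from age. P7 replicate 3 stood apart in several neuronal RNAs, and P7 replicate 1 in microglial, endothelial and some inhibitory neuron RNAs. These values are given beside the results they touch.

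Of 11578 genes tested, 1291 were higher at P7 (11.2%) and 801 lower (6.92%), with limma's moderated test and a Benjamini-Hochberg adjusted p threshold of 0.05. The median log2 change of all tested genes was -0.03. These shares and this median are the background for the counts and medians of the gene lists below. The 3 libraries of each age did not overlap for 2088 of the 2092 called genes, and 1303 called genes changed at least 2-fold. Non-overlap was common among all tested genes, of which 2828 had every P7 value above every P1 value and 2952 every P7 value below. All log2 changes are of log2(value + 1), which understates the change of genes with low counts. The fit included the 3 P14 libraries of the hippocampus for the estimate of the spread. Those libraries correlated less with each other (r 0.841 to 0.859), and a fit of the 6 libraries alone called 2195 genes higher and 2117 lower, all 2092 of the former calls among them. Leaving out 1 library also left fewer samples to estimate the spread, and the number called lower was then 459 without P1 replicate 1, 473 without P1 replicate 2, 435 without P1 replicate 3, 489 without P7 replicate 1, 459 without P7 replicate 2 and 471 without P7 replicate 3.

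**Figure D1:**
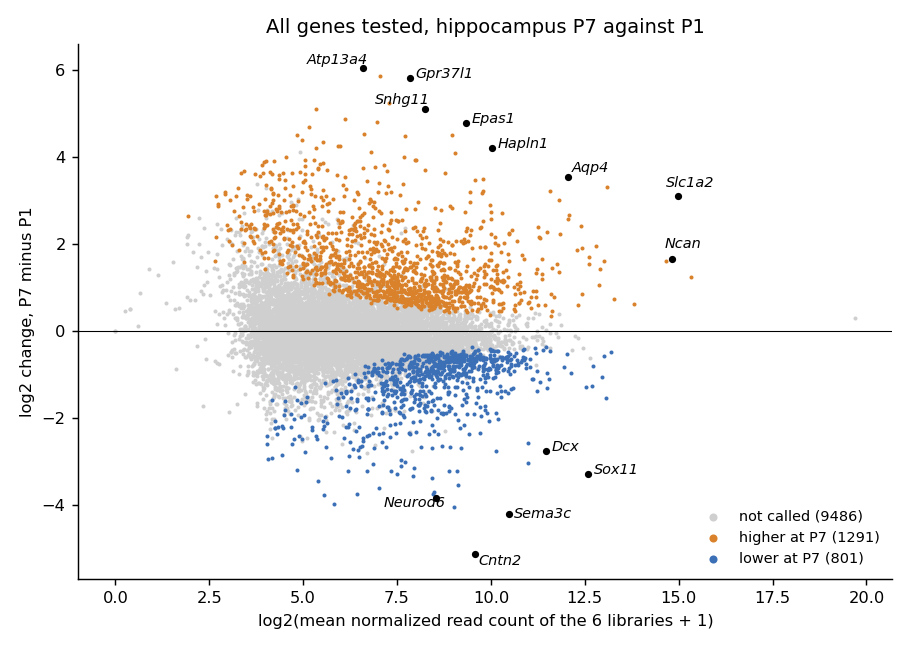
Each point is 1 of the 11578 genes tested, placed by its mean normalized read count over the 6 libraries (log2, plus 1) and by its log2 change from P1 to P7. Orange points are the 1291 genes called higher at P7, blue points the 801 called lower and grey points the rest. Genes with a high count such as Slc1a2, Aqp4 and Sox11 changed along with genes of low count such as Atp13a4.

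Rises and falls were ranked among called, non-overlapping genes with a mean at or above the median. The largest rises began from almost no RNA at P1. Atp13a4, which encodes a P-type ATPase, stood at 1.07, 1.78 and 3.07 at P1 and 223, 207 and 141 at P7 (log2 change 6.04, SE 0.35, limma adjusted p 5.71e-07), and no P1 library held more than 5 reads of it. Cd38, an ectoenzyme that breaks down NAD, was 17.8, 3.56 and 0 at P1 and 231, 225 and 314 at P7 (log2 change 5.85, SE 0.76, limma adjusted p 2.39e-04). Gpr37l1, a G protein-coupled receptor of glia, was 13.9, 2.23 and 9.22 at P1 and 426, 403 and 510.0 at P7 (log2 change 5.82, SE 0.44, limma adjusted p 3.41e-06). For these 3 genes every P7 library lay above every P1 library by more than 10-fold, and the P7 libraries resembled each other.

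Other large rises joined them. Epas1, which encodes the hypoxia-responsive transcription factor HIF-2 alpha (mm10 chr17:86753700-86833410, plus strand), was 34.5, 53.0 and 46.1 at P1 and 1165, 1033 and 1548 at P7 (log2 change 4.78, SE 0.18, limma adjusted p 3.37e-08). Slc14a1, a urea transporter, was 44.9, 38.8 and 40.5 at P1 and 905, 851 and 1125 at P7 (4.5, SE 0.16). Abhd3, a phospholipase, was 5.7, 8.02 and 9.83 at P1 and 239, 230.2 and 258 at P7 (4.81, SE 0.22). Ntsr2, a neurotensin receptor of astrocytes, was 6.05, 5.79 and 10.4 at P1 and 171, 197 and 193 at P7 (4.52, SE 0.24). The limma adjusted p was 2.44e-08 for Slc14a1, 1.28e-07 for Abhd3 and 3.50e-07 for Ntsr2, and none of their P7 libraries stood apart.

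A pair of the 10 largest rises belonged to RNAs that neurons hold in quantity, and there P7 replicate 3 was highest. Snhg11, a long noncoding RNA, was 10.3, 9.36 and 17.2 at P1 and 156, 489.9 and 1137 at P7 (log2 change 5.11, SE 1.00, limma adjusted p 0.00391). Camk2a, a synaptic kinase of excitatory neurons, was 16.4, 12.9 and 16 at P1 and 248, 263 and 699 at P7 (log2 change 4.48, SE 0.41, limma adjusted p 1.39e-05). In both genes the lowest P7 library still lay above the highest P1 library. The part of neuronal RNA in these rises was not tested.

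The 10 largest falls included genes that newly formed neurons and axons express. In bulk libraries fewer cells of a type and less RNA per cell cannot be told apart. Cntn2, an axonal adhesion protein (mm10 chr1:132509427-132543256, minus strand), was 1189, 1782 and 1430.3 at P1 and 24.2, 35.0 and 77.6 at P7 (log2 change -5.13, SE 0.49, limma adjusted p 2.11e-05). Sema3c, a secreted guidance cue, was 2488, 2708 and 2877 at P1 and 152, 168 and 120.2 at P7 (log2 change -4.20, SE 0.22, limma adjusted p 3.64e-07). Igfbpl1, a secreted protein of the insulin-like growth factor binding family, was 996, 1011 and 895 at P1 and 114, 51.9 and 33.1 at P7 (log2 change -4.03, SE 0.42, limma adjusted p 4.14e-05). All 3 P7 libraries lay below all P1 libraries in each of these genes, and the P7 values of Cntn2 and Igfbpl1 spread about 3-fold among themselves.

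Transcription factors of excitatory neurons and of their precursors were also among the 10 largest falls. Neurod6 was 658, 713 and 689 at P1 and 16.3, 58.8 and 106 at P7 (log2 change -3.84, SE 0.82, limma adjusted p 0.00648). Neurod2 was 568, 894 and 504 at P1 and 30.8, 49.4 and 67.2 at P7 (log2 change -3.73, SE 0.70, limma adjusted p 0.00296). Eomes, which marks intermediate progenitors, was 655, 745 and 565 at P1 and 58.6, 95.7 and 20.8 at P7 (log2 change -3.70, SE 0.63, limma adjusted p 0.0015). For Neurod2 and Neurod6 the highest P7 library was replicate 3, the same library that held the most Snhg11. The rest of the 10 were Sstr2, a somatostatin receptor (-3.73), Dusp4, a phosphatase of MAP kinases (-3.59), Unc5d, a netrin receptor (-3.52), and Mex3b, an RNA-binding protein (-3.37), with limma adjusted p of 0.00307, 1.75e-04, 0.00144 and 1.66e-04.

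Genes that define astrocytes rose without exception. All 20 members of the astrocyte identity list were called higher, with a median log2 change of 2.10, and their summed count went from 18860.2, 20869 and 17995 at P1 to 98629.6, 89828 and 127531 at P7. Slc1a2, the main glutamate transporter of the forebrain (mm10 chr2:102658659-102790784, plus strand), was 5923, 7599 and 6228 at P1 and 55716, 45805 and 71420.4 at P7 (log2 change 3.11, SE 0.17, limma adjusted p 3.64e-07). Slc1a3, the transporter that radial glia already carry, was 4317, 3997 and 3865 at P1 and 12032, 11275 and 13969 at P7 (log2 change 1.61, SE 0.11, limma adjusted p 1.56e-06). Glul, glutamine synthetase, was 967, 1157 and 732 at P1 and 3994, 3565 and 4925 at P7 (log2 change 2.14, SE 0.17, limma adjusted p 3.95e-06). Of these 3 genes of glutamate handling, Slc1a2 had the largest log2 change.

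Gap junction and water channel genes rose as well. Gja1, connexin 43 (mm10 chr10:56377330-56402513, plus strand), was 192, 157 and 166 at P1 and 1514, 1501 and 1660.5 at P7 (log2 change 3.18, SE 0.12, limma adjusted p 2.55e-08). Gjb6, connexin 30, was 8.55, 3.56 and 1.23 at P1 and 48.9, 35.7 and 53.9 at P7 (log2 change 3.34, SE 0.48, limma adjusted p 4.68e-04). Aqp4, the water channel of endfeet, was 654, 697 and 629 at P1 and 6668, 7922 and 8779 at P7 (log2 change 3.55, SE 0.11, limma adjusted p 2.01e-08). P1 and P7 libraries were far apart in all 3 genes, and Gjb6 remained at a low count at both ages.

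S100b, a calcium-binding protein used as a maturity marker, was 2.14, 2.67 and 6.76 at P1 and 127, 103 and 168 at P7 (log2 change 4.87, SE 0.36, limma adjusted p 2.86e-06). Gfap, the intermediate filament of reactive and mature astrocytes, was 314, 189.8 and 297 at P1 and 913, 1661 and 1656 at P7 (log2 change 2.38, SE 0.24, limma adjusted p 3.79e-05). Gfap was lower in P7 replicate 1 than in the other P7 libraries, and still above every P1 library. Some other members had smaller changes. Aldh1l1, a folate enzyme, was 183, 223 and 192 at P1 and 426, 417 and 604 at P7 (1.25, SE 0.17), and Sox9, a transcription factor of glial fate, was 748, 1017 and 726 at P1 and 1256, 1331 and 1319 at P7 (0.67, SE 0.15). Their limma adjusted p was 3.44e-04 and 0.00738.

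**Figure D2:**
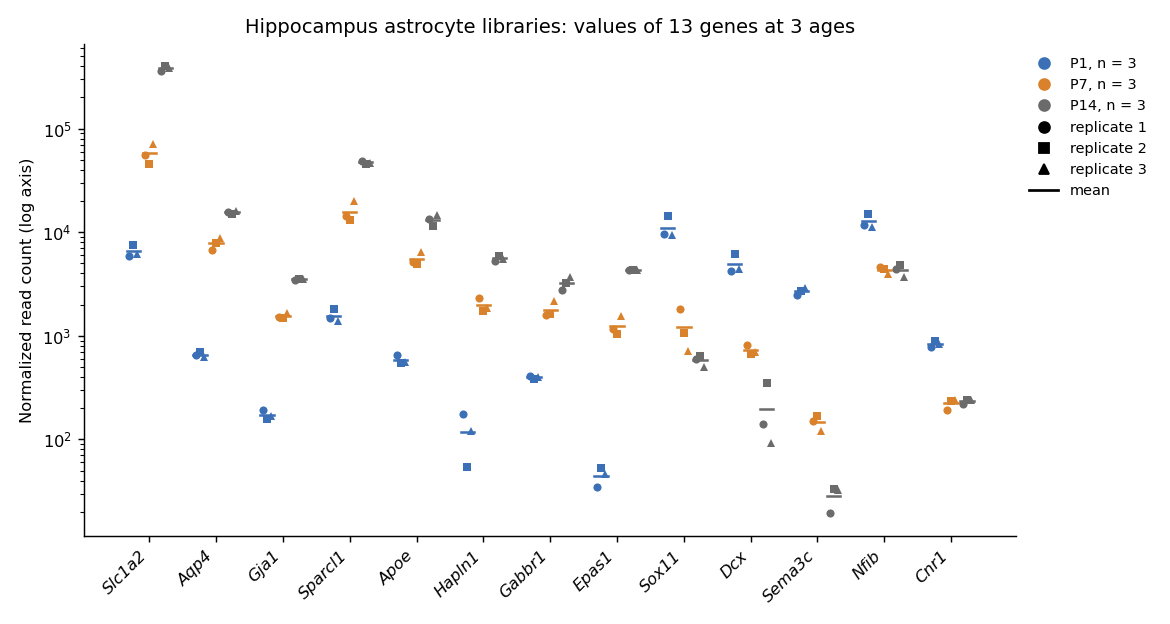
Normalized read counts (log axis) of 13 genes in each hippocampus library of P1 (blue), P7 (orange) and P14 (grey), with symbols for the replicates and a line at the mean of 3 libraries. From Slc1a2 to Epas1 the P7 libraries lie above all P1 libraries, and from Sox11 to Cnr1 they lie below them. P14 is shown for level and was not part of the P7 against P1 contrast.

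Genes of ion and water balance rose in 14 of 18 cases and fell in none (median log2 change 1.6). Kcnj10 and Kcnj16 encode inward rectifier potassium channels that pair in astrocytes. Kcnj10 was 492, 664 and 493 at P1 and 1936, 1677 and 2151 at P7 (log2 change 1.81, SE 0.14, limma adjusted p 3.60e-06). Kcnj16 was 22.8, 34.7 and 16 at P1 and 429, 395 and 342 at P7 (log2 change 3.99, SE 0.28, limma adjusted p 2.33e-06). Both partner channel genes rose, and the log2 change of Kcnj16 was the larger.

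Atp1b2, a sodium pump subunit of astrocytes, was called higher as well (log2 change 2.40, SE 0.18). Slc4a4, a sodium bicarbonate cotransporter, was 1049.5, 1509 and 1130.5 at P1 and 6379, 6442 and 9059 at P7 (log2 change 2.57, SE 0.16, limma adjusted p 1.10e-06). Fxyd1, a regulator of the pump, was 2.49, 2.23 and 0 at P1 and 16.3, 11.3 and 15.1 at P7 (log2 change 2.75, SE 0.62, limma adjusted p 0.00899), at 7 reads or fewer in each P1 library. Among the genes not called were Kcnk1 (-0.63), Slc12a2 (-0.38) and Clcn2 (0.12).

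Transporters and enzymes that clear transmitters were called higher in 10 of 13 cases (median log2 change 1.87). Slc6a11, the GABA transporter GAT-3, was 429, 672 and 416 at P1 and 2322, 1933 and 2799 at P7 (log2 change 2.23, SE 0.19, limma adjusted p 7.11e-06). Slc7a10, a serine and alanine exchanger, was 15.7, 14.7 and 16 at P1 and 113, 118 and 96.5 at P7 (log2 change 2.74, SE 0.24, limma adjusted p 1.07e-05). Slc6a9, the glycine transporter GlyT1, had a log2 change of 2.33, SE 0.36, and Maob, which oxidizes amines, 2.16, SE 0.33, with limma adjusted p of 9.04e-04 and 7.67e-04. Got1 (0.40) was not called. Slc38a1 (-1.07), a glutamine transporter, was not called by limma, but edgeR, DESeq2, the fit of 6 libraries and quantile normalization each called 1 member lower, which was Slc38a1.

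Receptors through which astrocytes sense transmitters rose in 15 of 22 cases, and 1 fell (median log2 change 1.61). The GABA-B receptor is a pair of subunits, of which Gabbr1 binds GABA and Gabbr2 couples to G proteins. Gabbr1 (mm10 chr17:37045966-37075067, plus strand) was 413, 384 and 396 at P1 and 1572, 1625 and 2181 at P7 (log2 change 2.15, SE 0.15, limma adjusted p 1.91e-06). Gabbr2 was 64.5, 83.8 and 92.2 at P1 and 439.6, 191 and 404 at P7 (log2 change 2.02, SE 0.29, limma adjusted p 4.46e-04). The P7 libraries of Gabbr1 lay close together, while Gabbr2 was lower in P7 replicate 2 than in the other P7 libraries, and the ages did not overlap in either gene.

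Ionotropic and metabotropic receptors moved the same way. Gabrg1, a GABA-A subunit, was 97.2, 65.9 and 106 at P1 and 409, 418 and 481 at P7 (log2 change 2.29, SE 0.18, limma adjusted p 4.95e-06). Grm3, a metabotropic glutamate receptor, was 491, 429 and 541 at P1 and 2323, 1960.0 and 2795 at P7 (log2 change 2.27, SE 0.14, limma adjusted p 9.53e-07). Grm5, a receptor that young astrocytes carry, was 317, 428 and 315 at P1 and 1072, 1027 and 1256 at P7 (log2 change 1.67, SE 0.16, limma adjusted p 2.35e-05). Among adenosine and endothelin receptors, Adora2b was 8.9, 7.13 and 11.1 at P1 and 103, 78.8 and 59.6 at P7 (3.01, SE 0.37), Adora1 had a log2 change of 2.33, SE 0.37 and Ednra of 2.43, SE 0.45, with limma adjusted p of 1.72e-04, 9.96e-04 and 0.0026.

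The receptor that fell was Cnr1, the cannabinoid receptor CB1, which many neurons carry. It was 773, 894 and 842 at P1 and 191, 235 and 242 at P7 (log2 change -1.91, SE 0.15, limma adjusted p 3.80e-06). The libraries of each age lay close together, far from those of the other age.

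Secreted factors that act on synapses were called higher in 8 of 15 cases and lower in 1 (median log2 change 1.27), beside 11.2% and 6.92% of all genes. Sparcl1, also named hevin, which promotes excitatory synapse formation, was 1501, 1811 and 1392 at P1 and 14324, 13018 and 20063 at P7 (log2 change 3.32, SE 0.16, limma adjusted p 1.66e-07). Gpc5, a glypican, was 5.7, 5.35 and 11.1 at P1 and 342, 272 and 302 at P7 (log2 change 5.25, SE 0.26, limma adjusted p 2.40e-07). Il33, a cytokine that astrocytes release to microglia, was 2.49, 2.23 and 6.14 at P1 and 90.0, 80.1 and 88.9 at P7 (log2 change 4.34, SE 0.37, limma adjusted p 8.15e-06). Each of these genes had P7 libraries that resembled each other and lay far above P1.

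Thbs4, a thrombospondin, was 3.21, 0.891 and 3.69 at P1 and 19.3, 13.8 and 19.9 at P7 (log2 change 2.46, SE 0.67, limma adjusted p 0.0237). Its call was lost without P1 replicates 1 or 2 or any 1 P7 library (limma adjusted p up to 0.0992). Tgfb2, a growth factor, fell (log2 change -0.69, SE 0.17, limma adjusted p 0.0141), from 1183, 1569 and 1068 at P1 to 702, 776 and 867 at P7. That call was lost without P1 replicate 2 or P7 replicate 1 (limma adjusted p up to 0.0658). The glypican Gpc4 (0.34) and the thrombospondin Thbs1 (0.81) were not called.

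Genes of the brain's extracellular matrix were called higher by limma in 7 of 13 cases and lower in none (median log2 change 1.28). The fit of 6 libraries and quantile normalization each called 2 lower, Vcan and Ptprs, at log2 changes of -0.44 and -0.38 in the deposited values. Hapln1, which links hyaluronan to proteoglycans (mm10 chr13:89539796-89611652, plus strand), was 176, 53.9 and 121 at P1 and 2313, 1722 and 1860.1 at P7 (log2 change 4.20, SE 0.32, limma adjusted p 3.50e-06). Bcan, brevican, was 289.9, 356 and 259.9 at P1 and 962, 1204 and 1253 at P7 (log2 change 1.92, SE 0.15, limma adjusted p 4.64e-06). Timp4, a protease inhibitor, had a log2 change of 1.92, SE 0.26 (limma adjusted p 3.40e-04). Hapln1 was lowest in P1 replicate 2, and its ages did not overlap.

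Ncan, neurocan, was 11936, 19569.9 and 11353 at P1 and 37502, 41574 and 53447 at P7 (log2 change 1.66, SE 0.20, limma adjusted p 1.33e-04). With quantile normalization, which forces all libraries to 1 distribution, its log2 change became -0.56. In the deposited values every P7 library of Ncan lay above every P1 library.

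Genes of cholesterol synthesis had small changes of 1 sign. Of 22, 10 were called higher and none lower, all 22 had a positive log2 change, and the median was 0.70. Tm7sf2, a sterol reductase, was 21.7, 29.0 and 25.8 at P1 and 82.1, 92.0 and 67.2 at P7 (log2 change 1.62, SE 0.32, limma adjusted p 0.00428). Idi1, which isomerizes isopentenyl diphosphate, was 509, 347 and 468 at P1 and 953, 850.2 and 939 at P7 (log2 change 1.07, SE 0.15, limma adjusted p 4.84e-04). Dhcr7, the last reductase of the pathway, and Sc5d, a desaturase, had log2 changes of 1.12, SE 0.23 and 1.00, SE 0.14, with limma adjusted p of 0.00566 and 4.00e-04.

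Fatty acid genes were called higher by limma in 7 of 14 cases and lower in none (median 0.77). DESeq2, the fit of 6 libraries and quantile normalization called 9, 9 and 8 higher, and each called 1 lower, Acly. Me1, malic enzyme, was 122, 106 and 136 at P1 and 792, 698 and 1163 at P7 (log2 change 2.83, SE 0.20, limma adjusted p 2.36e-06). The desaturases Scd1 and Scd2 also rose. Scd1 was 323, 243 and 313 at P1 and 1892, 1329 and 2059 at P7 (log2 change 2.57, SE 0.17, limma adjusted p 1.24e-06), and Scd2 had a log2 change of 1.70, SE 0.15. Fads2, a desaturase of polyunsaturated fatty acids, had 1.32, SE 0.17. The other calls were Fads1, another desaturase, the elongase Elovl5 and the acetate-activating enzyme Acss2. The synthase Fasn (0.40), Acly (-0.59) and Acaca (0.07), which supply and build the chain, were not called.

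Lipid export and uptake genes rose in 6 of 13 cases and fell in none (median 1.03). Apoe, the main lipid carrier of the brain, was 658, 543 and 557 at P1 and 5109, 4893 and 6439.5 at P7 (log2 change 3.22, SE 0.14, limma adjusted p 9.06e-08). Clu, clusterin, was 371, 367 and 269.7 at P1 and 2084, 1983 and 2523 at P7 (log2 change 2.71, SE 0.15, limma adjusted p 3.64e-07). Lcat, which esterifies cholesterol on lipoproteins, had a log2 change of 2.24, SE 0.33, and Lrp1, a receptor for apolipoprotein E, 1.17, SE 0.14. For Apoe and Clu the libraries of each age lay close together and the ages were far apart.

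Energy metabolism genes were called higher in 14 of 24 cases and lower in none (median 0.77). Ppp1r3c, which targets phosphatase to glycogen, was 268, 189.8 and 188 at P1 and 1028, 1298 and 1011 at P7 (log2 change 2.37, SE 0.17, limma adjusted p 2.66e-06). Pfkm, a phosphofructokinase subunit, was 85.1, 95.3 and 119.8 at P1 and 248, 257 and 326 at P7 (log2 change 1.46, SE 0.18, limma adjusted p 1.72e-04). Fatty acid oxidation genes Acadl (1.41), Acaa2 (1.15), Hadha (0.70) and Cpt1a (0.74) were all called higher. Ldhb, the heart-type subunit of lactate dehydrogenase, was called higher (1.23), and Ldha (-0.22), Pkm (-0.43) and Hk1 (-0.03) were not called.

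A pair of calls in this list was fragile. Ppp1r3g, a glycogen-targeting subunit, was 3.92, 1.34 and 0.614 at P1 and 14.5, 13.8 and 9.46 at P7 (log2 change 2.34, SE 0.58, limma adjusted p 0.0145), and was not called without P1 replicates 2 or 3 or P7 replicates 1 or 2 (limma adjusted p up to 0.0647). Pfkp was 25.6, 15.6 and 49.2 at P1 and 52.5, 92.0 and 208 at P7 (log2 change 1.85, SE 0.51, limma adjusted p 0.0248), highest in P7 replicate 3, and was not called without P1 replicates 1 or 2 or P7 replicates 2 or 3 (limma adjusted p up to 0.121).

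Nuclear-encoded respiratory chain genes and cytosolic ribosomal protein genes had opposite signs. Of 70 respiratory chain genes, 9 were called higher and none lower (median 0.39), a share near the 11.2% of all genes called higher. Cox8a was 107, 106 and 106 at P1 and 222, 226 and 298 at P7 (log2 change 1.2, SE 0.17, limma adjusted p 5.12e-04). Of 69 ribosomal protein genes, 23 were called lower and none higher, all 69 had a negative change, and the median was -0.54. Rpl15 was 1432, 1099 and 1409 at P1 and 727, 693 and 729 at P7 (log2 change -0.86, SE 0.13, limma adjusted p 5.53e-04).

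Both counts moved with single libraries. The respiratory count was 5 without P1 replicate 1, 2 without P1 replicate 2, 3 without P1 replicate 3, 5 without P7 replicate 1, 6 without P7 replicate 2 and 1 without P7 replicate 3. The ribosomal count was 7, 39, 9, 12, 8 and 16 in the same order. The summed count of all 77 listed ribosomal protein genes was 51132, 36208 and 47563 at P1 and 30468, 28483 and 33624 at P7, and P1 replicate 2 was nearest to P7. The medians kept their signs in each of these fits, and the respiratory median was 0.25 without P7 replicate 3. Several ribosomal protein genes share reads with processed pseudogenes, and how such reads were counted is not given in the sources used here.

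The thyroid hormone list, with transporters, deiodinase, receptors and targets, had 4 of 10 genes called higher and none lower. Thrb, a thyroid hormone receptor, was 15, 10.7 and 11.7 at P1 and 79.1, 61.9 and 69.1 at P7 (log2 change 2.41, SE 0.26, limma adjusted p 5.20e-05). Klf9, a direct target of the receptor in many tissues, was 125, 133 and 81.1 at P1 and 296, 282 and 284 at P7 (log2 change 1.37, SE 0.23, limma adjusted p 0.00126). Slco1c1, a transporter of thyroxine, was 649, 524 and 559 at P1 and 1211, 1288 and 1141 at P7 (log2 change 1.07, SE 0.13, limma adjusted p 1.06e-04). Dio2, which activates thyroxine in astrocytes, rose by less (log2 change 0.72, SE 0.17, limma adjusted p 0.0138), a call lost without P1 replicates 2 or 3 or P7 replicate 3 (limma adjusted p up to 0.0719).

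**Figure D3:**
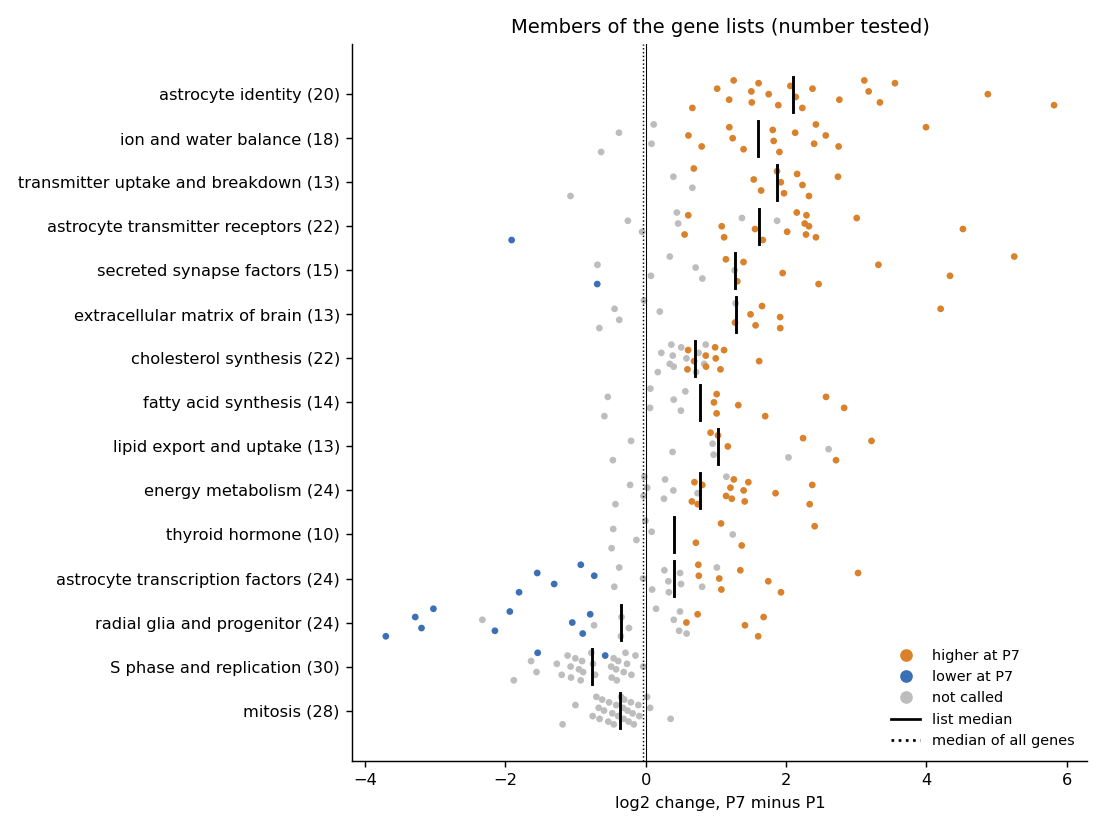
Log2 change from P1 to P7 of the tested members of 15 gene lists, with the number tested in parentheses, the list median as a black bar and the median of all tested genes as a dotted line. Orange members were called higher, blue lower and grey not called. The astrocyte identity members are all orange, and the S phase and mitosis members lie mostly left of 0 but are nearly all grey.

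The radial glia and progenitor list split, with 9 of 24 tested genes called lower and 5 higher (median -0.35). The median was -0.61 without P7 replicate 2 and -0.23 without P7 replicate 3. Sox11, a factor of immature neurons and progenitors (mm10 chr12:27334264-27342574, minus strand), was 9625, 14196 and 9487 at P1 and 1827, 1072 and 717 at P7 (log2 change -3.28, SE 0.28, limma adjusted p 7.90e-06). Cd24a, a surface protein of young neurons, was 3372, 3993 and 3543 at P1 and 556, 432 and 368 at P7 (log2 change -3.02, SE 0.30, limma adjusted p 2.90e-05). Igf2bp1, a fetal RNA-binding protein, was 55.9, 36.5 and 59.0 at P1 and 4.83, 5.0 and 3.78 at P7 (log2 change -3.19, SE 0.57, limma adjusted p 0.0021). In all 3 genes the ages were far apart, and Sox11 and Cd24a were lowest in P7 replicate 3.

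The intermediate filaments of radial glia fell by less. Nes, nestin, was 1467, 1188 and 1267 at P1 and 566, 626 and 708 at P7 (log2 change -1.05, SE 0.17, limma adjusted p 0.00121). Vim, vimentin, was 1749.7, 1727 and 1468 at P1 and 734, 972 and 964 at P7 (log2 change -0.90, SE 0.16, limma adjusted p 0.00232). Tnc, tenascin C, had a log2 change of -0.79, SE 0.21, and Zfp57, an imprinting factor, of -1.93, SE 0.56, with limma adjusted p of 0.0213 and 0.0318. The call of Tnc was lost without P1 replicate 2 or P7 replicate 1, and that of Zfp57 without any 1 of the 6 libraries (limma adjusted p up to 0.0928 and 0.155).

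The members that rose were Hes5, a target of Notch signalling, Ptprz1, a receptor phosphatase, Fabp7, a fatty acid carrier, Sox2, a transcription factor of neural stem cells and glia, and Igf2, a growth factor. Hes5 was 46.7, 73.1 and 76.2 at P1 and 177, 224 and 223 at P7 (log2 change 1.68, SE 0.29, limma adjusted p 0.00167). Ptprz1 was 11119, 17144 and 10939.7 at P1 and 40464, 36302 and 39762 at P7 (log2 change 1.6, SE 0.16, limma adjusted p 3.72e-05), a call lost with quantile normalization (log2 change 0.32, limma adjusted p 0.161), and Fabp7 was 8055, 6623 and 7372 at P1 and 10878, 11347 and 14868 at P7 (log2 change 0.74, SE 0.14, limma adjusted p 0.00277). Sox2 (0.58) and Igf2 (1.41) were called higher, with limma adjusted p of 0.017 and 0.0387. Sox2 was not called without P1 replicates 1 or 3 or P7 replicates 1 or 2, nor Igf2 without P1 replicates 2 or 3 or any 1 P7 library (limma adjusted p up to 0.0771 and 0.137), and the number of members called higher was 3 without P1 replicate 3 or without P7 replicate 2.

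Transcription factors of the astrocyte lineage also split, with 8 of 24 called higher and 5 lower (median 0.41). Nfib and Nfix, nuclear factor I genes that start gliogenesis, fell. Nfib was 11810.1, 15076 and 11287 at P1 and 4586, 4428 and 3989 at P7 (log2 change -1.54, SE 0.14, limma adjusted p 1.07e-05). Nfix was 3660.0, 5473 and 3255 at P1 and 1602, 1657 and 1634 at P7 (log2 change -1.30, SE 0.17, limma adjusted p 2.86e-04). Their relative Nfia was 5808, 7917 and 5278 at P1 and 4746, 4618 and 5062 at P7 and was not called (log2 change -0.38, SE 0.14, limma adjusted p 0.0911).

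A pair of homeobox and zinc finger factors fell too. Zbtb20, which specifies hippocampal fields, had a log2 change of -0.92, SE 0.14, and Lhx2 of -0.73, SE 0.17, with limma adjusted p of 7.23e-04 and 0.00943. Zbtb20, Nfib and Nfix are also expressed by hippocampal neurons. The summed neuron markers, given further on and led by Dcx at P1, were lower at P7 in the same libraries, though not every marker was. The part of neuronal RNA in these falls was not tested.

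Nuclear receptors and homeobox factors were among those that rose. Dbx2, a homeobox gene, was 26.4, 21.8 and 21.5 at P1 and 188, 205 and 194 at P7 (log2 change 3.03, SE 0.21, limma adjusted p 2.38e-06). Rorb, an orphan nuclear receptor, was 316, 439 and 387 at P1 and 1301, 1509 and 1517 at P7 (log2 change 1.93, SE 0.14, limma adjusted p 2.38e-06). Nr3c1, the glucocorticoid receptor, was 191, 216 and 204 at P1 and 677, 726 and 651 at P7 (log2 change 1.75, SE 0.13, limma adjusted p 3.48e-06), and Glis3 had a log2 change of 1.35, SE 0.24. The P7 libraries of Dbx2, Rorb and Nr3c1 lay close together.

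Cell cycle genes had mostly negative log2 changes. All 30 S phase genes did (median -0.76), and the median was -0.44 without P7 replicate 3. Limma called 2 of them lower, a share near the 6.92% of all genes called lower. Among the 30, 6 had an unadjusted p under 0.05, the fit of the 6 libraries called 9, edgeR 1 and DESeq2 2, and limma called 4 without P7 replicate 1 and 1 without any other single library. Mcm7, a subunit of the replicative helicase, was 150.3, 147 and 156 at P1 and 62.8, 58.2 and 36.9 at P7 (log2 change -1.54, SE 0.31, limma adjusted p 0.00483). Pcna, the sliding clamp of DNA polymerase, was 402, 338 and 335 at P1 and 291, 233 and 202 at P7 (log2 change -0.58, SE 0.17, limma adjusted p 0.0403), and was called without P7 replicate 1 but not without any other single library (limma adjusted p up to 0.172). The S phase sum was 2715, 2397 and 2324 at P1 and 2068, 1564 and 1128 at P7, lowest in P7 replicate 3.

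Of 28 mitosis genes, none was called by limma, edgeR or DESeq2 (median -0.37). In limma 2 of them had an unadjusted p under 0.05, and the fit of 6 libraries called 8 lower. Without P7 replicate 1, limma called 2. Mki67, the proliferation marker, was 1353, 1488 and 1509.5 at P1 and 1225, 1049 and 689 at P7 (log2 change -0.59, SE 0.21, limma adjusted p 0.069). The mitosis sum was 4218, 4219 and 4432 at P1 and 3829, 3231 and 2609 at P7. Its P7 libraries differed from each other by more than P7 replicate 1 did from P1, and at P14 the sum was 1032, 1892 and 967.

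Promoters of these genes are shown because S phase genes are commonly bound by E2F factors and mitosis genes by the DREAM complex at the CHR element. The windows run from 250 bases before to 50 bases after the start site (RefSeq, GRCm38.p6), are written 5′ to 3′ on the gene's strand, and carry capitals where the letters TTTGGCGC or TTTCGCGC (E2F) or TTTGAA (CHR) were found on either strand.
Mcm7 (chr5:138171834-138172133, minus strand): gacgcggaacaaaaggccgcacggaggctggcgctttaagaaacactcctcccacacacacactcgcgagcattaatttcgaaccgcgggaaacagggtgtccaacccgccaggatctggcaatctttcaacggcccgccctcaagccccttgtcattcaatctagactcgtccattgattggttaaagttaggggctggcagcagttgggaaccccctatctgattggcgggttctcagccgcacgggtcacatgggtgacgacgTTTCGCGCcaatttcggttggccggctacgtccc
Mcm6 (chr1:128359656-128359955, minus strand): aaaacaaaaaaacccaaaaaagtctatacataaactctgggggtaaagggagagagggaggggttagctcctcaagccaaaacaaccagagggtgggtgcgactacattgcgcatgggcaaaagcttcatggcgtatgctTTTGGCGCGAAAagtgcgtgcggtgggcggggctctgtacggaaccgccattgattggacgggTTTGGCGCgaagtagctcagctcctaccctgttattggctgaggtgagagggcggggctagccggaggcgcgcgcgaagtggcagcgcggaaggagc
Mki67 (chr7:135716330-135716629, minus strand): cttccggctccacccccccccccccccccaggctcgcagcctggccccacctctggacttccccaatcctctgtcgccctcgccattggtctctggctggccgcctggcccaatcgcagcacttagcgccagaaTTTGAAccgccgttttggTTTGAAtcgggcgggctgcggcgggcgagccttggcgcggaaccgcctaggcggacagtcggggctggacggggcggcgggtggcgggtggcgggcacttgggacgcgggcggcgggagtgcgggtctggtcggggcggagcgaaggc

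In the Mcm7 window the E2F letters began 16 bases after the start, and in the Mcm6 window at 110, 106 and 47 bases before it, where the first pair overlap. The Mki67 window held CHR letters at 116 and 98 bases before the start and no E2F letters. One or the other E2F motif was found for 9 of the 25 S phase genes with a window, for 1 of 23 mitosis genes and for 0.929% of the 27025 genes in the table. The CHR letters were found for 17 of 23 mitosis genes, 3 of 25 S phase genes and 20.2% of all genes. Mcm6, not called, was 239, 224 and 238 at P1 and 168, 116 and 93.7 at P7. The window of Pcna, which was called, held neither motif, and no match says only that these letters are absent from it.

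Immediate early genes, which respond within minutes to many stimuli, were higher at P7. Of 10 tested genes on the early response list 7 were called higher and none lower (median log2 change 2.00). The sum of all 15 listed genes, tested or not, was 2432, 2885 and 2470.4 at P1, 7803, 11603 and 5810.3 at P7 and 1281, 1019.9 and 1186 at P14. Fos was 203, 289 and 270.3 at P1 and 1369.5, 2111 and 1069 at P7 (log2 change 2.53, SE 0.51, limma adjusted p 0.00443). Egr1 was 693, 1168 and 754 at P1 and 3779, 6021 and 2470.4 at P7 (log2 change 2.17, SE 0.38, limma adjusted p 0.00183). Junb was 11.8, 12.9 and 8.6 at P1 and 99.0, 113 and 79.5 at P7 (log2 change 3.03, SE 0.61, limma adjusted p 0.00449). The P7 sum was highest in replicate 2 and lowest in replicate 3, and the ages did not overlap.

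Jun (1.05), Fosb (2.33), Dusp1 (1.84) and Zfp36 (2.20) were the other called members, with limma adjusted p of 0.00566, 0.00513, 0.00855 and 0.0306. Ier2 (1.66), Ier3 (0.25) and Hspa5 (0.08), a chaperone gene, were not called. Fosb and Dusp1 were not called without P7 replicate 2, and Zfp36 without any 1 of the 6 libraries (limma adjusted p up to 0.0528, 0.0514 and 0.14). Without P7 replicate 2 the list had 4 calls.

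RNAs of other cell types were present, and several moved between the ages. Their part in the results above was not tested. The summed count of 15 neuron markers was 9790.5, 12029.9 and 10110.3 at P1 and 3924, 4236 and 5242 at P7, with no overlap. Dcx was the largest member of the sum at P1. Of the 15 markers, 10 had a negative and 5 a positive log2 change, and the mean of Snap25 was 337 at P1 and 375 at P7. Dcx, of migrating neurons, was 4222, 6191 and 4378 at P1 and 818, 666 and 696 at P7 (log2 change -2.74, SE 0.37, limma adjusted p 2.82e-04). Elavl3 fell too (log2 change -1.88, SE 0.25, limma adjusted p 2.72e-04), as did Tubb3 (log2 change -2.36, SE 0.57, limma adjusted p 0.0134), a call lost without P1 replicate 2 (limma adjusted p 0.0679), and Map2 (log2 change -0.38, SE 0.10, limma adjusted p 0.0238), a call lost without P1 replicates 1 or 3 or P7 replicates 1 or 2 (limma adjusted p up to 0.111).

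Of the 15 neuron markers 4 were called lower and 1 higher, beside 6.92% and 11.2% of all genes. The gene called higher was Nefl, a neurofilament, at 2.14, 0.446 and 4.92 at P1 and 19.3, 40.04 and 59.6 at P7 (log2 change 3.63, SE 0.73, limma adjusted p 0.00442), and it was highest in P7 replicate 3. Its mean was 39.7 at P7 and 10.9 at P14, and it reached the mean of 10 needed for testing mainly through P7. Syt1, of synaptic vesicles, was 100.1, 130.1 and 97.7 at P1 and 124, 175 and 391 at P7 and was not called. The neuron markers were thus not uniform, with Dcx and Tubb3 lower and Nefl higher in the same libraries.

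Excitatory neuron markers were called lower in 7 of 14 cases and higher in 1, Camk2a. Of the 14, 10 had a negative and 4 a positive log2 change. Slc17a7, not called, was 8.9, 5.35 and 11.7 at P1 and 15.7, 24.4 and 74.8 at P7. Reln, not called either, was 167, 144 and 214 at P1 and 345, 211 and 624 at P7. Neurod1 was 929.5, 1020.2 and 989 at P1 and 112, 145 and 71.9 at P7 (log2 change -3.20, SE 0.26, limma adjusted p 5.44e-06). Slc17a6, a vesicular glutamate transporter of young neurons, was 449, 413 and 461 at P1 and 50.1, 46.9 and 50.1 at P7 (log2 change -3.14, SE 0.41, limma adjusted p 2.40e-04). Tbr1 fell from 409.9, 502 and 414 to 50.1, 43.8 and 36.9 (log2 change -3.32, SE 0.94, limma adjusted p 0.0292), and was not called without any 1 of the 6 libraries (limma adjusted p up to 0.105). Of 9 inhibitory neuron markers none was called by limma, edgeR or DESeq2, and 0 had an unadjusted p under 0.05 in limma. Their median log2 change was -0.52, and -1.27 without P7 replicate 1, where limma again called 0. Dlx1 was 80.9, 8.76 and 16.1 and Dlx6os1 171, 13.8 and 24.6 at P7, both highest in replicate 1. Gad1 and Gad2 were not highest there. With P7 libraries this far apart, the lack of calls does not show that these RNAs stayed level.

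Oligodendrocyte precursor markers rose in 5 of 8 cases and fell in none (median 2.42). The sum of all 10 listed markers was 474, 583 and 383 at P1 and 1776, 1461 and 1289 at P7. Gpr17 was 5.34, 4.46 and 4.3 at P1 and 113, 52.6 and 68.1 at P7 (log2 change 3.72, SE 0.48, limma adjusted p 2.21e-04). Olig1, which astrocyte progenitors also carry, was 147, 255 and 154 at P1 and 531, 468 and 522 at P7 (log2 change 1.49, SE 0.21, limma adjusted p 4.00e-04). Pdgfra (2.38) and Sox10 (2.76) were called with limma adjusted p of 0.0153 and 0.0143, but not without P1 replicate 3 or P7 replicate 1 (limma adjusted p up to 0.0775 and 0.0622), where the list had 3 calls. Sox10, with means of 3.02, 26.0 and 1.67 at P1, P7 and P14, reached the mean of 10 needed for testing through P7 alone. Of 5 tested markers of mature oligodendrocytes Cnp (2.71, SE 0.22) and Ugt8a (1.59, SE 0.46) were called higher, beside 11.2% of all genes. Ugt8a was not called without any 1 of the 6 libraries (limma adjusted p up to 0.139). Of the defining markers, Opalin was at 0 in all 6 libraries, Mobp was 0, 0 and 0 at P1 and 0, 0 and 1.89 at P7, and Mog was 3.92, 9.36 and 5.53 at P1 and 3.02, 1.88 and 2.84 at P7.

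Microglia markers were called higher in 8 of 10 cases (median 2.43). The sum of all 14 listed markers was 202, 131 and 149.9 at P1 and 1725, 1003 and 387 at P7. Cx3cr1 was 8.19, 6.24 and 2.46 at P1 and 159, 76.3 and 40.7 at P7 (log2 change 3.71, SE 0.60, limma adjusted p 0.00111), and P2ry12 was 24.2, 16 and 19 at P1 and 365, 136 and 76.6 at P7 (log2 change 2.94, SE 0.53, limma adjusted p 0.00215). P7 replicate 1 was highest and replicate 3 lowest in both. The list had 4 calls without P1 replicate 2 or without P1 replicate 3, and 3 without P7 replicate 1 or without P7 replicate 2.

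Endothelial markers had a median change of 2.67, with 4 of 8 called higher. The sum of all 12 listed markers was 149, 80.2 and 57.1 at P1 and 754, 398 and 374 at P7. Cldn5 was 4.27, 2.67 and 0 at P1 and 37.4, 30.7 and 27.4 at P7 (log2 change 3.60, SE 0.74, limma adjusted p 0.00523). Leaving out 1 library left 1 to 3 endothelial calls: 1 without P1 replicate 1 or P7 replicate 1, 2 without P1 replicates 2 or 3 or P7 replicate 2, and 3 without P7 replicate 3. Of 8 mural and fibroblast markers 2 were called higher and none lower (median 0.46), beside 11.2% and 6.92% of all genes. The median was 1.09 without P1 replicate 1, -0.26 without P1 replicate 3, 0.30 without P7 replicate 1 and 0.83 without P7 replicate 2. Rgs5 rose (log2 change 2.07, SE 0.30, limma adjusted p 4.67e-04), and Abcc9 (log2 change 2.48, SE 0.77, limma adjusted p 0.0436) was not called without any 1 of the 6 libraries. Of 8 choroid plexus markers limma called 0, with 2 at an unadjusted p under 0.05, and edgeR and DESeq2 called 1 each, as limma did without P1 replicate 1 or P7 replicate 1. Several of them were tested only because of P14, such as Kl (means 1.07, 6.24 and 132 at P1, P7 and P14) and Clic6 (2.20, 5.83 and 260). At so few reads in the 6 libraries, the lack of calls says little about P7 against P1. Ttr, the transthyretin of that tissue, was 45.6, 8.02 and 24.6 at P1 and 7.85, 141 and 926 at P7, with P7 replicate 3 standing above the rest.

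**Figure D4:**
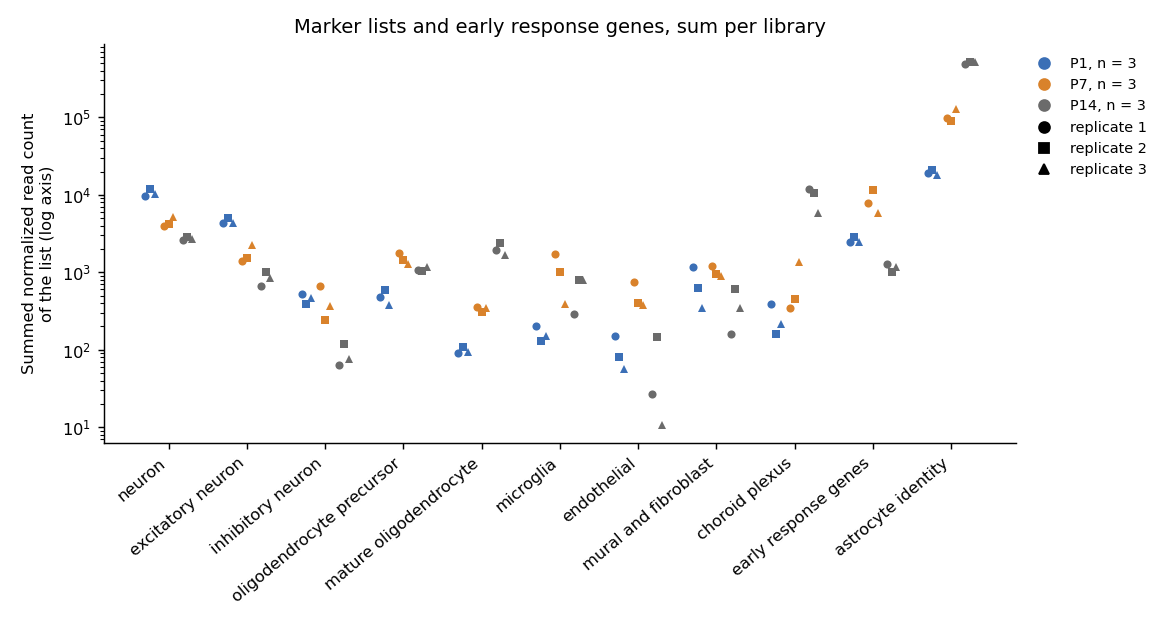
Summed normalized read count (log axis) of each marker list, of the early response genes and of the astrocyte identity list in every hippocampus library of P1 (blue), P7 (orange) and P14 (grey), with symbols for the replicates. The sums of the neuron and excitatory neuron lists are lower at each later age, the inhibitory neuron sums of P1 and P7 overlap, and the early response sum is highest at P7.

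The change from P1 to P7 was then set against cortex and olfactory bulb, with 3 libraries per age in each. Reads of these 18 libraries were recovered and scaled together, and the difference between regions in the age change was tested with limma on 13164 genes. The change was higher in hippocampus than in cortex for 879 genes (6.68%) and lower for 886 (6.73%). Against olfactory bulb it was higher for 435 genes (3.3%) and lower for 503 (3.82%). The labels do not say whether regions share animals, and levels below are reads on this joint scale.

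Gabbr1 rose more in hippocampus than in the other regions. Its joint-scale level was 837, 797 and 795 at P1 and 3305, 3376 and 4575 at P7 in hippocampus, 2140, 1953 and 1880 at P1 and 5609, 5321 and 5083 at P7 in cortex, and 1325, 1137 and 1065 at P1 and 1199, 1065 and 1159 at P7 in olfactory bulb. The log2 change in hippocampus exceeded that in cortex by 0.77, SE 0.17, limma adjusted p 0.00703, and that in olfactory bulb by 2.23, SE 0.17, limma adjusted p 3.23e-07. Hippocampus started below cortex and was still below it at P7. For Gabbr2 the differences were 0.23, SE 0.40, limma adjusted p 0.751 against cortex and -0.74, SE 0.40, limma adjusted p 0.29 against olfactory bulb.

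Among genes with a mean at or above the median, the largest differences from cortex in the upward direction were in Meg3, Trank1, Snhg11, Arpp21 and Csmd3. Genes of lower mean were not ranked, and among them Nefl differed by 3.91 (limma adjusted p 0.0079). Snhg11 stood at 20.9, 19.4 and 34.5 at P1 and 328, 1018 and 2386 at P7 in hippocampus, and at 468, 684 and 510 at P1 and 1551, 262 and 2481 at P7 in cortex (difference in log2 change 4.33, SE 0.91, limma adjusted p 0.0047). Meg3, a noncoding RNA of neurons, stood at 249, 132 and 352 at P1 and 1006, 2865 and 6524 at P7 in hippocampus and at 6083, 6710 and 4471 at P1 and 3806, 978 and 6391 at P7 in cortex (difference in log2 change 4.53, SE 0.81, limma adjusted p 0.00166). Both RNAs were low in hippocampus at P1, varied several-fold between P7 libraries of both regions, and within hippocampus were highest in P7 replicate 3. Without that library the differences were 3.65 for Snhg11 and 3.88 for Meg3, with limma adjusted p of 0.0136 and 0.00431. In cortex both RNAs were lowest at P7 in replicate 2, and no fit left out a cortex library. The part of neuronal RNA in these differences was not tested.

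In the downward direction, with the same bound on the mean, the largest differences from cortex were in Rasgef1b, Fam163a, Synpr, Sema3a and Unc5d. Sema3a, a repellent guidance cue, stood at 504, 717 and 576 at P1 and 59.7, 66.3 and 65.5 at P7 in hippocampus, and at 284, 255 and 234 at P1 and 165, 94.3 and 208 at P7 in cortex (difference in log2 change -2.40, SE 0.32, limma adjusted p 1.77e-04). Fam163a differed in another way. It was 168, 304 and 211 at P1 and 270.5, 234 and 383 at P7 in hippocampus, where it was not called, and 27.7, 47.3 and 62.1 at P1 and 347, 434 and 264 at P7 in cortex (difference in log2 change -2.56, SE 0.53, limma adjusted p 0.00433).

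Against olfactory bulb, with the same bound on the mean, the largest differences were in Sv2b, Gpc5, Brinp1, Unc5c and Camk2a upward. Downward they were in Sema3c, Hs6st2, Pcp4, Ptprk and Epha3. Ppp1r3g, of lower mean and not ranked, differed by 3.315 (limma adjusted p 0.0215). Sema3c stood at 5042, 5617 and 5769 at P1 and 320, 349.7 and 252 at P7 in hippocampus, and at 128, 113 and 82.7 at P1 and 753, 423 and 239.9 at P7 in olfactory bulb (difference in log2 change -6.15, SE 0.40, limma adjusted p 5.26e-08). Gpc5 stood at 11.6, 11.1 and 22.2 at P1 and 719, 564 and 633 at P7 in hippocampus, and at 67.6, 91.6 and 122 at P1 and 336, 519.6 and 223 at P7 in olfactory bulb (difference in log2 change 3.50, SE 0.40, limma adjusted p 2.94e-05). Ptprk, a receptor phosphatase, had a log2 change of -1.79 in hippocampus on the joint scale and of 2.32 in olfactory bulb (difference -4.12, SE 0.49, limma adjusted p 4.14e-05). Sema3c and Ptprk thus had opposite signs in the 2 regions, with every library of P7 on its own side of P1 in each.

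**Figure D5:**
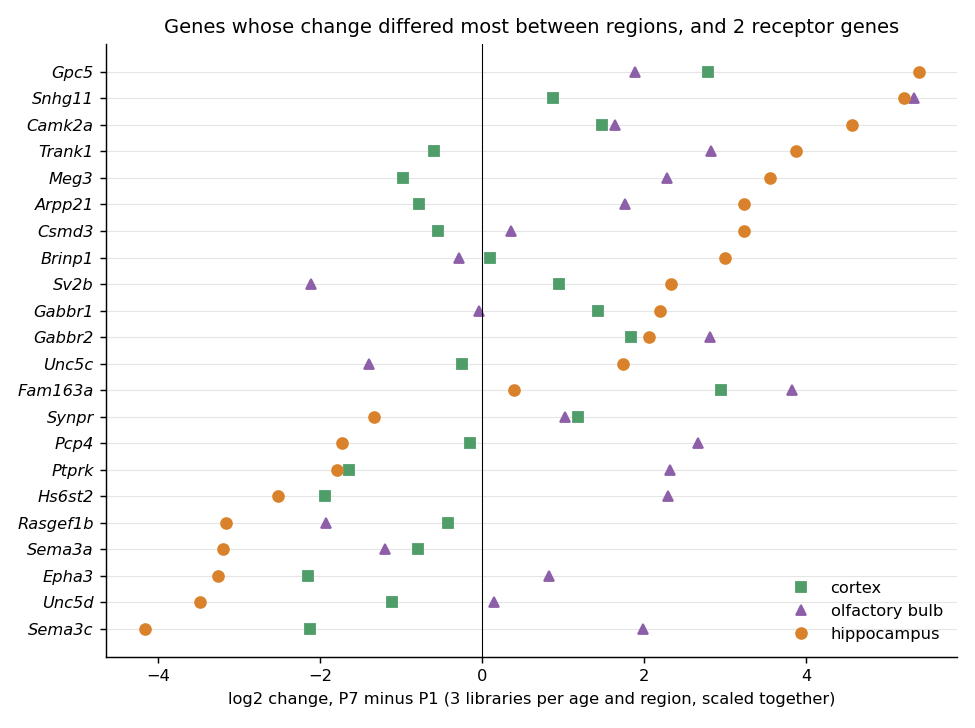
Log2 change from P1 to P7 in hippocampus (orange circles), cortex (green squares) and olfactory bulb (purple triangles), on reads scaled together, for Gabbr1, Gabbr2 and 20 other genes. Those 20 had the largest differences between regions among genes with a mean at or above the median. Sema3c is the lowest of the hippocampus points, and its olfactory bulb point lies at 1.99.

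For the gene lists the differences between regions were partial. Of all genes, 6.68% changed more in hippocampus than in cortex and 6.73% less. Against olfactory bulb these shares were 3.3% and 3.82%. The median change of the 20 astrocyte identity genes was 2.14 in hippocampus, 1.47 in cortex and 1.31 in olfactory bulb, and 4 genes changed more in hippocampus than in cortex and 6 more than in olfactory bulb, while 1 changed less than in olfactory bulb. Several of these genes were lowest in olfactory bulb P7 replicate 3. At P7 in that region Gfap was 365, 369 and 34.3 and Aqp4 3316, 4972 and 1729. Aldh1l1 (428, 587 and 644) and Gjb6 (78.6, 139 and 85.0) were not lowest there. The part of that library in the olfactory bulb medians was not tested. Respiratory chain genes had medians of 0.43, -0.14 and -0.04 in the same order, with 22 of 70 changing more in hippocampus than in cortex and 6 more than in olfactory bulb. Ribosomal protein genes had medians of -0.50, -1.11 and -0.69, and 31 of 70 fell by less in hippocampus than in cortex. Early response genes had medians of 1.88, 0.57 and 1.18 over 13 genes, 4 of which changed more in hippocampus than in cortex. Cholesterol synthesis genes had medians of 0.76, 0.82 and 0.29, with none of 22 differing from cortex and 2 changing more than in olfactory bulb.

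Levels at P14 place the P7 values between ages for some genes and not for others. The P14 comparison shares the P7 libraries, so only levels are given. Slc1a2 reached 362867, 399091 and 388523, Aqp4 15722, 14962 and 15949.8 and Gjb6 599, 939 and 1014 at P14, above all P7 libraries. Gfap at P14 was 1351, 1111 and 1238, within the range of P7. Cnr1 was 221, 243 and 240.1 and Nfib was 4408, 4773 and 3719 at P14, overlapping their P7 values, while Lhx2, at 1029.7, 1267 and 1114, lay above P7. Fos was 29.0, 4.41 and 7.17 and Egr1 was 70.9, 33.1 and 91.4 at P14, below P1 and P7.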

How the data were processed

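The deposited values are a normalized signal per gene and library, and no header names the unit. In each hippocampus library 100% of the values were whole multiples (tolerance 0.02 reads) of what 1 read is worth, so the authors' deposited signal is gene read counts divided by 1 factor per library, and whole reads were recovered. STAR 2.5.0a, DESeq2 1.20.0, FastQC, MultiQC and the mm10 build are listed per the submitters' processing notes. The counting program, annotation and strand setting are not given in the sources used here, so reads of overlapping or antisense genes and of near-identical copies may be shared. The table has 24421 genes, of which 27 have symbols turned into dates. These stayed in the tests and are not named. No column of per-sample values outside the mapped libraries is present.

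Genes with a table mean of at least 10 were tested with limma 3.58.1 (trend, R 4.3.3) on log2(value + 1) over 9 hippocampus libraries, with age as the factor and Benjamini-Hochberg adjustment over all genes. That mean is over all 9 libraries, so a gene could pass through 1 age alone. Genes are called at an adjusted p under 0.05. Depth ran from 4002881 to 8986015 reads, and 3 reads were worth 1.07 to 2.84 in value. Regions were compared on recovered reads of 18 libraries scaled together by median-ratio size factors. The scripts were tested on simulated data. Alternatives for the hippocampus test were 2 pseudocounts, 2 filters, 3 scalings, other fits, edgeR 4.0.16, DESeq2 1.42.0 and leaving out each P1 or P7 library. The region test was repeated with edgeR, a pseudocount of 8, a minimum mean of 100 and each hippocampus library left out. No cortex or olfactory bulb library was left out. Library properties were compared with an exact permutation test, which cannot go below p 0.1 with 3 against 3.

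Gene lists, members and tests were chosen with earlier results of these data known. Genes were named by a rule: Gabbr1 and Gabbr2, the 10 largest rises and falls among called, non-overlapping genes with a mean at or above the median, up to 4 called members per list with the largest change and any called member that went against the others, the 5 largest region differences in each direction with the same bound on the mean, and textbook members of each list. Genes given as not called, and calls that 1 library decides, were chosen after their values were seen. Positions are those of GENCODE M21 (mm10), which holds 23350 of the symbols, and promoters are from RefSeq (GRCm38.p6). Replicates are numbered in accession order. Results for some genes are not reported here.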

Additional observations from a re-analysis of the deposited data

Results flagged for a closer look

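The P1 to P7 change of the following genes differed between regions by limma's interaction test (adjusted p under 0.05), with differences in log2 change given as hippocampus minus the other region. Gabbr1 differed by 0.77 from cortex and by 2.23 from olfactory bulb. Against cortex, the upward differences were 4.53 for Meg3, 4.47 for Trank1, 4.33 for Snhg11, 4.01 for Arpp21 and 3.77 for Csmd3. The downward differences from cortex were -2.74 for Rasgef1b, -2.56 for Fam163a, -2.52 for Synpr, -2.40 for Sema3a and -2.38 for Unc5d. Against olfactory bulb, the upward differences were 4.45 for Sv2b, 3.50 for Gpc5, 3.29 for Brinp1, 3.13 for Unc5c and 2.93 for Camk2a. The downward differences from olfactory bulb were -6.15 for Sema3c, -4.81 for Hs6st2, -4.39 for Pcp4, -4.12 for Ptprk and -4.09 for Epha3.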

How the results depend on the processing

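The number of genes higher at P7, 1291 in the analysis reported, was 2195 in a fit of the 6 libraries alone and 2592 with array weights. The number lower, 801, was 2117 and 2464 under the same settings, 1242 with quantile normalization and 389 when a 2-fold change was required. Leaving out 1 library gave 921 to 1038 higher and 435 to 489 lower. The other settings left both counts within 1.5 times, and the counts of genes differing between regions stayed within 1.5 times under all settings run. In the region test only hippocampus libraries were left out, not those of cortex or olfactory bulb. Higher calls made up 50.9 to 70.1% of all calls over the settings, against 61.7%. Of 151 called genes that are named, 126 to 136 kept their call with 1 library left out, 131 without the trend and 137 with a pseudocount of 0.1. Ncan changed sign with quantile normalization (-0.56); the cause was not tested. No paired analysis was possible because the labels give no replicate numbers shared between ages. Depth limits genes at few reads, where 3 reads were worth up to 2.84 in value, in P7 replicate 3.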
